A study of Mus musculus with 18 samples.

Results

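The genes described here are 44 that copy the genome in S phase of the cell cycle, given by name as a list of replication factors. All 44 were found among the 55284 named entries of the count table, and all 44 were among the 33795 genes that passed the filter on low counts and entered the test. They were measured in 18 RNA libraries of CD4+CD25- T cells from 3 competitive bone marrow chimeras, numbered 10, 11 and 12. In each chimera an irradiated CD45.1 BoyJ host carried both CD45.2 marrow lacking Nr4a1 and Nr4a3 in the germline (double knockout, DKO) and a larger share of CD45.1/2 marrow of wild type (WT), all on the C57BL/6 strain, so DKO and WT cells were taken from the same animal. Nr4a1 and Nr4a3 encode NUR77 and NOR-1, orphan nuclear receptors induced by T cell receptor signals.

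The 6 groups were anergic DKO and anergic WT cells, stimulated DKO and stimulated WT cells, and naive DKO and naive WT cells, with 1 library of each in each chimera. Anergic cells were sorted from spleen and lymph node as CD62L low, CD44 high, FR4 high and CD73 high, a phenotype of T cells that have met antigen and respond poorly to it. Naive cells were sorted as CD62L high, CD44 low, FR4 low and CD73 low. Stimulated cells were such naive cells after 3 h on plates coated with anti-CD3 at 8 µg/ml with anti-CD28 at 2 µg/ml. Both donors' cells developed in an irradiated host, the sort gate defines the anergic population by surface proteins only, and ages were not given in the sources used here.

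A cell licenses its replication origins in G1, when the origin recognition complex (ORC) with CDC6 and CDT1 loads the ring-shaped MCM helicase, built of the subunits MCM2 to MCM7. In S phase CDC45 and the GINS complex join the MCM ring to form the active helicase (CMG), polymerases alpha, delta and epsilon make DNA behind the sliding clamp PCNA, and ribonucleotide reductase, thymidylate synthase and thymidine kinase supply the nucleotides. Many of these genes are controlled by E2F factors, which the retinoblastoma (RB) proteins hold in check in resting cells. Naive T cells rest outside the cycle and enter their first S phase only about a day after activation, later than the 3 h studied here.

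Promoter sequence bears on how these genes are grouped, because E2F, NF-Y and the DREAM complex read short words near the start site. In windows from 250 bases before to 50 bases after each RefSeq start (GRCm38.p6), which were at hand for 37 of the 44 members in 43 promoters, the E2F words TTTGGCGC, TTTCCCGC, TTTGCCGC or TTTCGCGC were found on either strand in 32.6% of member promoters, against 2.26% of all 32851 promoters of the same length. The word CCAAT, bound by NF-Y, was found on either strand in 58.1% of member promoters and 37.4% of all promoters. The GC box GGGCGG was found in 72.1% of member promoters and 35.7% of all promoters, and the CHR words TTTGAA or TTCGAA, read by the DREAM complex, in 18.6% and 19.2%. Mcm4, Gins1, Gins2, Gins4, Rfc2, Prim2 and Pole had no entry. A match describes letters in a window and is not a binding site.

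The 160 bases upstream of 6 members on which the later results turn are shown here, 5′ to 3′ on the gene's strand, with E2F, CCAAT and CHR matches in capitals. Mcm6 (chr1:128359706-128359865, minus strand), Mcm5 (chr8:75109349-75109508, plus strand) and Gins3 (chr8:95633399-95633558, plus strand) hold E2F words, while Rrm2 (chr12:24708094-24708253, plus strand), Chaf1a (chr17:56040256-56040415, plus strand) and Pcna (chr2:132253181-132253340, minus strand) hold a CCAAT word and none of the 4 E2F words. In Mcm6 and in Mcm5 a pair of E2F words on opposite strands overlaps, and each is 1 run of capitals.
Mcm6: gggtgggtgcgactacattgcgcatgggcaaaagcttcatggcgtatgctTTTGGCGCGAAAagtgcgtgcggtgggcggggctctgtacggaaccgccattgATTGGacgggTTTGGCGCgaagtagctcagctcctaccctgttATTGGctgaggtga
Mcm5: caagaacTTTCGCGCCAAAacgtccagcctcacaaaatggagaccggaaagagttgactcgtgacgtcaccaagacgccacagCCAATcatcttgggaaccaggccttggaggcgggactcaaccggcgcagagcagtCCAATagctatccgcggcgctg
Gins3: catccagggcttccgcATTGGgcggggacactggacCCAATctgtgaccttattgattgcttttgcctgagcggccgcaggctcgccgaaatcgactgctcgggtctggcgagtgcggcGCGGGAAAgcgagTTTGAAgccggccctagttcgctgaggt
Rrm2: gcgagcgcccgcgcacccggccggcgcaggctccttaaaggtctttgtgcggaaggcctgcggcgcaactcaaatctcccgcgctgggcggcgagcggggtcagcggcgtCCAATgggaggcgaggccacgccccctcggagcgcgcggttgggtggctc
Chaf1a: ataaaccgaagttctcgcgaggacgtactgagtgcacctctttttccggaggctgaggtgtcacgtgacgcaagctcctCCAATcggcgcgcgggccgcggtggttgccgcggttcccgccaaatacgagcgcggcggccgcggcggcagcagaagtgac
Pcna: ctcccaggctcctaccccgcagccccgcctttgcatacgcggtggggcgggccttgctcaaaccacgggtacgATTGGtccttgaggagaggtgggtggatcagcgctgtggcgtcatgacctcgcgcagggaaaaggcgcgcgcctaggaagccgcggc

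The members called in the comparisons described later came from promoters with and without these words. Lig1, Mcm6, Gins3, Rfc3, Mcm5, Cdt1, E2f2 and Pole2 hold an E2F word, while Rrm1, Rrm2, Tyms, Tk1, Chaf1a, Chaf1b, Pcna, Dut and Mcm2 hold none in their windows.

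Total counts were 16133212 to 39783046 per library, and the 8 CD4 T cell markers summed to 8607 to 14250 TPM (a length-corrected level) in every library. The naive WT and stimulated WT libraries of chimera 12 stood apart: they had 38041 and 39478 genes detected, against 42493 to 45748 in the other 16, and 807.3 and 571.8 CPM (library-scaled counts) on olfactory and vomeronasal receptor genes, against 1417 to 3253. Trimmed mean of M values (TMM) factors ran from 0.5501 in stimulated WT cells of chimera 12 to 1.321 in anergic WT cells of chimera 12, so the counts of members in the comparisons with naive cells are also given without them. Reads of Nr4a1 and Nr4a3 were present in DKO libraries, with Nr4a1 at 161.8 to 168.8 TPM in anergic DKO cells against 170.5 to 195.4 TPM in anergic WT cells, and at 5300 to 7343 TPM in stimulated DKO cells against 2927 to 5443 TPM in stimulated WT cells. Counts over the whole gene do not show whether the deleted part is missing and so do not check the genotype.

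Levels are given as TPM, which correct for gene length, in chimeras 10, 11 and 12 in that order. TPM ranges of 3 libraries often do not overlap. Against naive cells this held for 39% of all genes tested in anergic DKO and 28% in anergic WT cells. In stimulated cells it held for 53.3% in DKO and 25.2% in WT. Between genotypes it held for 23.7% in anergic, 9.03% in stimulated and 13.1% in naive cells. Differences are log2 fold changes (± SE) from edgeR's quasi-likelihood test on the counts, and a gene is called where its Benjamini-Hochberg adjusted p over all genes tested is under 0.05. The SE and p rest on a spread for each gene that was estimated over all 18 libraries of the 6 groups together. They thus do not measure the spread among the 3 chimeras within the groups compared alone. In bulk RNA fewer cells in S phase and less replication RNA per cell cannot be told apart.

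Replication genes were expressed in every group, including resting naive cells. The summed level of the 44 members was 1769 to 1913 TPM in anergic DKO cells and 1769 to 1868 TPM in anergic WT cells. It was 1523 to 1639 TPM in stimulated DKO cells and 1588 to 1683 TPM in stimulated WT cells, and 1505 to 1593 TPM in naive DKO cells against 1565 to 1692 TPM in naive WT cells. The anergic libraries of both genotypes thus lay above all naive and stimulated libraries, and DKO and WT ranges overlapped in each population. The highest member was Mcm6 (mean over all libraries 171.5 TPM), followed by Rpa1 (143.7 TPM), the large subunit of the single-strand binding protein RPA, Mcm4 (142.4 TPM), Pcna (126.3 TPM) and Pold2 (110.0 TPM), a subunit of polymerase delta. Mcm6 is also the member with the widest range of levels over the libraries, 83.7 to 324 TPM.

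The lowest member was Cdc6, the loader of the MCM ring, which is scarce in resting cells. Cdc6 had 1.32, 0.61 and 0.41 TPM in anergic DKO cells and 1.09, 1.48 and 1.01 TPM in anergic WT cells. It had 0.46, 0.56 and 0.23 TPM in stimulated DKO cells against 0.72, 0.70 and 0.06 TPM in stimulated WT cells, and 0.74, 0.36 and 0.68 TPM in naive DKO cells against 0.35, 1.13 and 0.26 TPM in naive WT cells. These ranges overlapped across groups, and Cdc6 was called in none of the 9 comparisons. Origin licensing factors thus spanned the widest range of all roles, with the MCM ring at the top and its loader at the bottom.

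**Figure D1:**
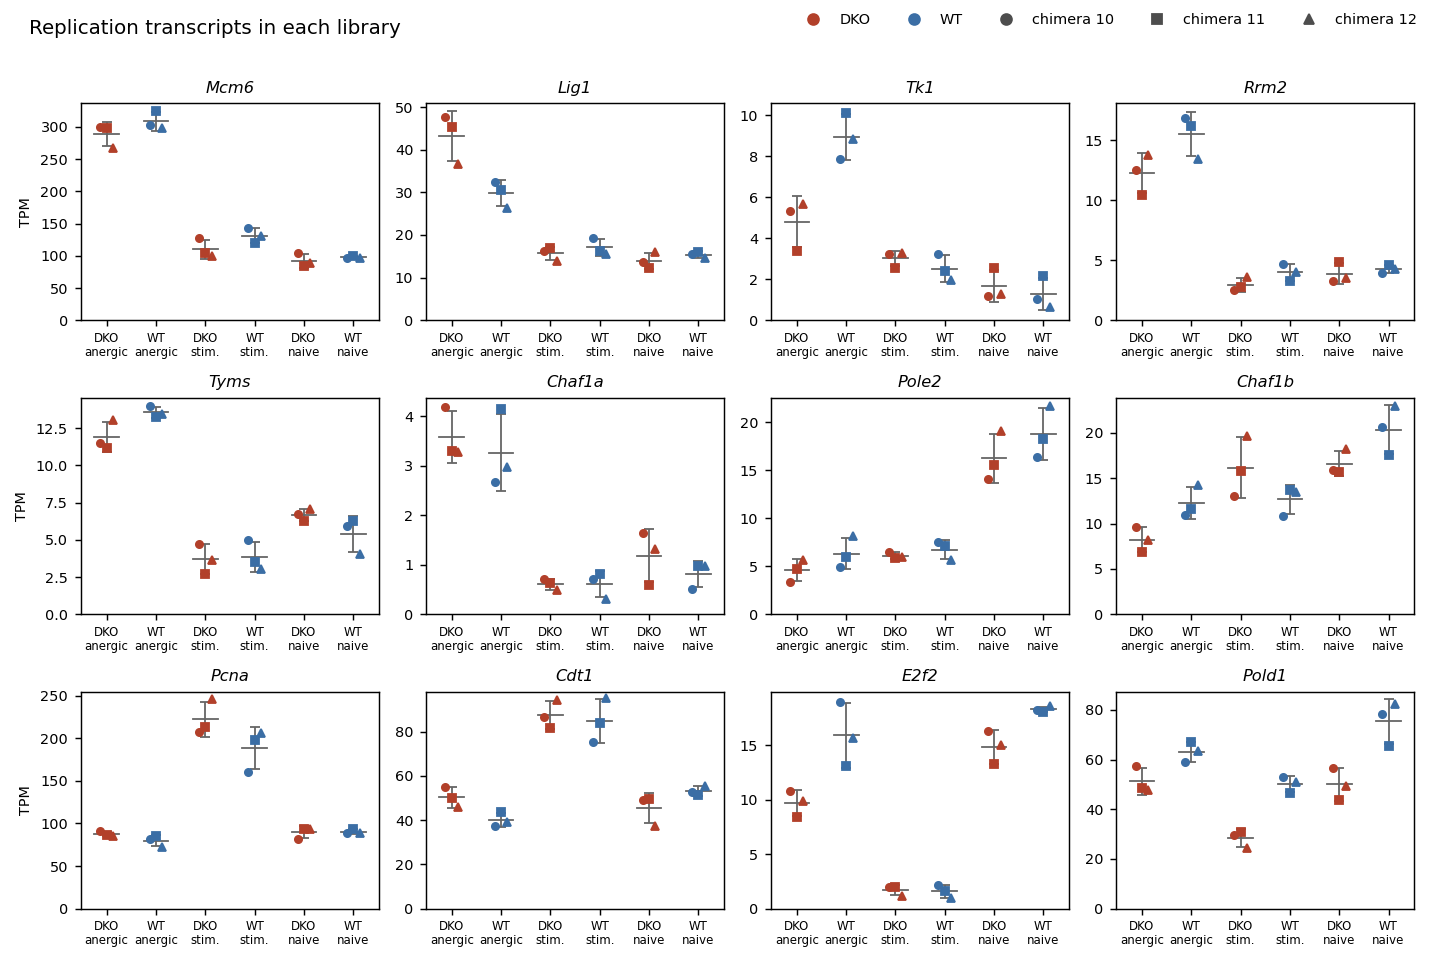
Level in TPM of Mcm6, Lig1, Tk1, Rrm2, Tyms, Chaf1a, Pole2, Chaf1b, Pcna, Cdt1, E2f2 and Pold1, picked from the 44 members. The 6 groups are ordered as anergic DKO, anergic WT, stimulated DKO, stimulated WT, naive DKO and naive WT. Mcm6 reaches the highest level of those shown, in anergic cells. Most of those shown were called in a comparison described below, so they do not stand for all 44.

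Anergic cells differed from naive cells in a small set of replication genes, and the set was similar in both genotypes. Of the 44 members, 10 were higher and 2 lower in anergic DKO than in naive DKO cells, where 6.65% and 2.76% of all genes tested were called higher and lower. In anergic WT cells 7 were higher and 2 lower than in naive WT cells, where 5.11% and 4.71% of all genes tested were called higher and lower. Of 18672 genes in the members' range of mean log2 CPM, 1950 were called higher and 713 lower in DKO cells. In WT cells 1476 and 1343 of them were. The count of members called lower was thus near that of genes of like level in DKO cells and below it in WT cells. The 7 called higher in both were Chaf1a, Gins2, Lig1, Mcm6, Rrm2, Tk1 and Tyms, which is 70% of the DKO list and 100% of the WT list, and Chaf1b and Pole2 were lower in both. The same overlap was not computed over all genes tested, so these shares do not show a trait particular to the members. The members' median log2 change was 0.20 in DKO cells against -0.21 over all genes tested, and -0.0023 in WT cells against 0.26 over all genes. Over genes with a mean log2 CPM over 1 the median was 0.04 in DKO and 0.0045 in WT cells. The members' WT median was thus near that of well expressed genes. Its value depends on the scaling: it was 0.11 with TMM factors from well expressed genes and -0.22 with size factors by relative log expression. The medians over all genes were 0.37 and 0.10 there, so the members' median lay below them each time.

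Mcm6 showed the clearest difference among the licensing factors. Its levels were 300.3, 299 and 267 TPM in anergic DKO cells, against 105, 83.7 and 88.5 TPM in naive DKO cells. In anergic WT cells they were 303, 324 and 298 TPM, against 96.3, 99.2 and 96.8 TPM in naive WT cells. Every anergic library was thus above every naive library of its genotype, by a log2 fold change of 1.78 ± 0.24 in DKO cells (adjusted p = 7.04e-06) and 1.44 ± 0.24 in WT cells (adjusted p = 0.000127).

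The other 5 subunits of the same ring did not follow. Mcm2, Mcm3, Mcm4, Mcm5 and Mcm7 had log2 changes of 0.09 to 0.48 in anergic DKO against naive DKO cells and of -0.50 to -0.07 in anergic WT against naive WT cells, and none was called (adjusted p 0.298 to 0.895 in DKO cells and 0.301 to 0.907 in WT cells). Mcm4, for example, had 140.3, 135 and 119 TPM in anergic DKO cells and 127, 123 and 135 TPM in naive DKO cells, ranges that overlapped. MCM subunits act together in equal parts, and among the 12 other settings only Mcm5 in DKO cells was ever called, in 5 of them, while the sign turned in 1 to 5 settings for Mcm2, Mcm3 and Mcm7 in DKO and Mcm5 in WT cells. Of the 10 licensing factors Mcm6 was the only one called in either genotype.

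**Figure D2:**
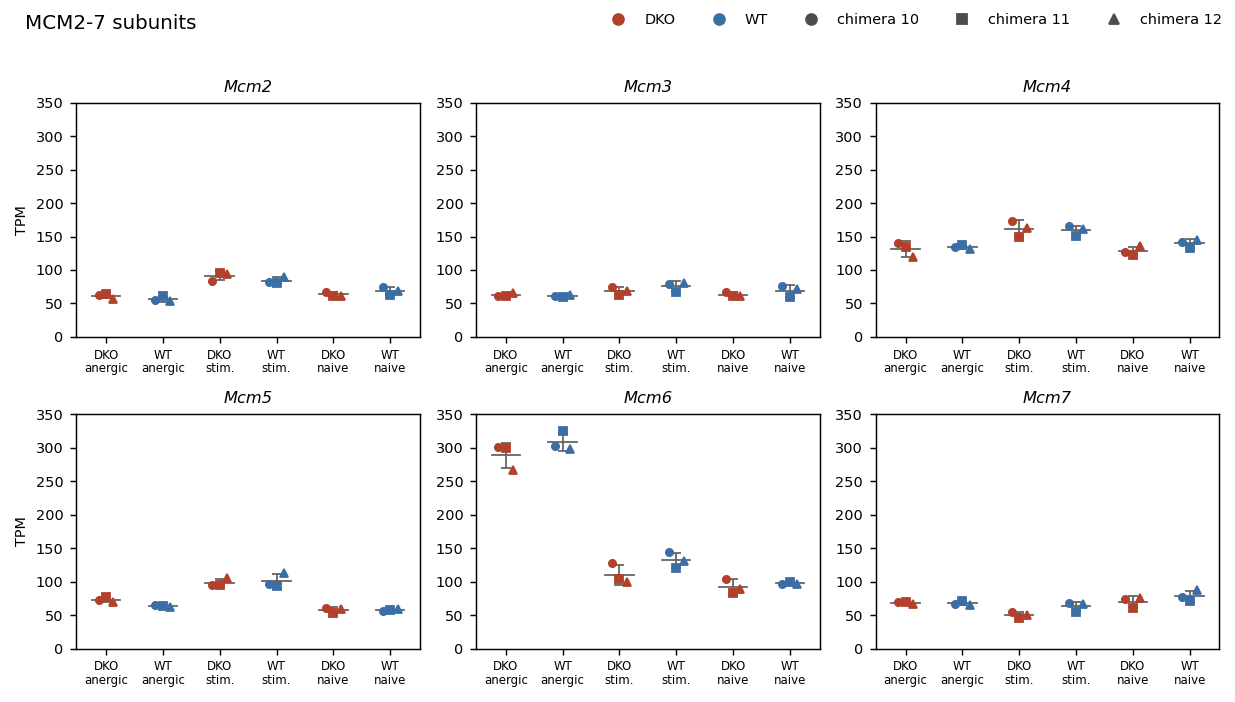
Level in TPM of the 6 MCM ring subunits, with 1 panel each, bars at the group mean ± SD of 3 chimeras and 1 marker for each chimera. Mcm6 is the only subunit whose anergic libraries (267 to 324 TPM) stand far above its naive libraries (83.7 to 105 TPM).

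Genes for nucleotide supply were the role with the most calls. Of 5 members, 4 were higher in anergic DKO than naive DKO cells (median log2 change 0.97) and 3 in anergic WT than naive WT cells (median 1.11). Rrm2, the S phase subunit of ribonucleotide reductase, had 12.5, 10.4 and 13.8 TPM in anergic DKO cells against 3.25, 4.85 and 3.50 TPM in naive DKO cells, and 16.8, 16.2 and 13.4 TPM in anergic WT cells against 3.97, 4.58 and 4.24 TPM in naive WT cells. The groups did not overlap, and the log2 fold change was 1.77 ± 0.36 in DKO cells (adjusted p = 0.001) and 1.66 ± 0.35 in WT cells (adjusted p = 0.00184).

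Tk1, the thymidine kinase of the salvage path, had 5.35, 3.38 and 5.66 TPM in anergic DKO cells against 1.19, 2.56 and 1.26 TPM in naive DKO cells, and 7.85, 10.1 and 8.84 TPM in anergic WT cells against 1.05, 2.14 and 0.66 TPM in naive WT cells. All anergic libraries were above all naive ones, with log2 fold changes of 1.69 ± 0.40 in DKO cells (adjusted p = 0.00458) and 2.66 ± 0.41 in WT cells (adjusted p = 3.28e-05). Tyms, thymidylate synthase, had 11.5, 11.2 and 13.04 TPM in anergic DKO cells against 6.73, 6.25 and 7.05 TPM in naive DKO cells, and 14.0, 13.2 and 13.4 TPM in anergic WT cells against 5.97, 6.25 and 4.02 TPM in naive WT cells. Its log2 fold change was 0.97 ± 0.25 in DKO cells (adjusted p = 0.00946) and 1.11 ± 0.25 in WT cells (adjusted p = 0.00275). The table also holds an entry for a Tyms pseudogene, and reads shared with it could have been assigned to either.

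At the fork, Lig1, the ligase that seals Okazaki fragments, was higher in anergic cells of both genotypes. It had 47.7, 45.3 and 36.5 TPM in anergic DKO cells against 13.7, 12.1 and 16.0 TPM in naive DKO cells, and 32.4, 30.6 and 26.4 TPM in anergic WT cells against 15.6, 16.0 and 14.5 TPM in naive WT cells. No anergic library overlapped the naive ones, and the log2 fold change was 1.77 ± 0.23 in DKO cells (adjusted p = 3.39e-06) and 0.73 ± 0.23 in WT cells (adjusted p = 0.039, called in 7 of the 12 other settings). Fen1, the flap endonuclease that prepares the same fragments, was not called in either genotype, and 78.8% of its exonic bases overlap a gene on the opposite strand.

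Gins2, a subunit of the GINS complex, had 4.04, 2.52 and 2.96 TPM in anergic DKO cells against 0.92, 1.12 and 1.21 TPM in naive DKO cells, and 2.62, 3.10 and 2.53 TPM in anergic WT cells against 1.10, 0.83 and 0.86 TPM in naive WT cells. The anergic libraries were above the naive ones in both genotypes, with log2 fold changes of 1.67 ± 0.40 (adjusted p = 0.00565) in DKO cells and 1.34 ± 0.40 (adjusted p = 0.0302, called in 7 of the 12 other settings) in WT cells. Chaf1a, the large subunit of the histone chaperone CAF-1, had 4.18, 3.30 and 3.27 TPM in anergic DKO cells against 1.65, 0.60 and 1.32 TPM in naive DKO cells, and 2.68, 4.14 and 2.97 TPM in anergic WT cells against 0.51, 0.97 and 0.97 TPM in naive WT cells. Its log2 fold change was 1.72 ± 0.41 in DKO cells (adjusted p = 0.00527) and 1.75 ± 0.41 in WT cells (adjusted p = 0.00478). The libraries do not mark strand, 67.3% of the exonic bases of Gins2 overlap Gse1 and 52.5% of those of Chaf1a overlap Ubxn6, so reads of these pairs cannot be told apart. Neither neighbour was called, with log2 changes of 0.40 in DKO and -0.51 in WT cells for Gse1 and of 0.24 and -0.14 for Ubxn6.

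Chaf1b, the middle subunit of the same chaperone, went the other way. It had 9.64, 6.89 and 8.14 TPM in anergic DKO cells against 15.9, 15.6 and 18.2 TPM in naive DKO cells, and 10.9, 11.6 and 14.2 TPM in anergic WT cells against 20.6, 17.5 and 22.9 TPM in naive WT cells. No anergic library reached a naive one, and the log2 fold change was -0.87 ± 0.26 in DKO cells (adjusted p = 0.0285, called in 6 of the 12 other settings) and -0.97 ± 0.26 in WT cells (adjusted p = 0.0118). The 2 listed subunits of CAF-1 were thus called in opposite directions in both genotypes.

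Pole2, the second subunit of polymerase epsilon, was the only one of 8 polymerase and primase genes called, and it fell in both genotypes. It had 3.42, 4.68 and 5.69 TPM in anergic DKO cells against 14.1, 15.5 and 19.1 TPM in naive DKO cells, and 4.92, 5.97 and 8.11 TPM in anergic WT cells against 16.3, 18.2 and 21.7 TPM in naive WT cells. The ranges were far apart, with log2 fold changes of -1.70 ± 0.27 (adjusted p = 6.03e-05) in DKO cells and -1.82 ± 0.27 (adjusted p = 2.58e-05) in WT cells. The catalytic subunit gene Pole was not called.

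Gins3, Rfc3 and Rrm1 were called higher in anergic cells of DKO origin and not of WT origin. Their log2 fold changes in DKO cells were 0.86 ± 0.24 for Gins3, 0.89 ± 0.28 for Rfc3, a clamp loader subunit, and 0.76 ± 0.22 for Rrm1, the large subunit of ribonucleotide reductase (adjusted p 0.0212, 0.04 and 0.0272). The difference between the genotypes' changes was not called for any of them (adjusted p 0.491 for Gins3, 0.715 for Rfc3 and 0.51 for Rrm1), so a difference between genotypes is not shown.

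**Figure D3:**
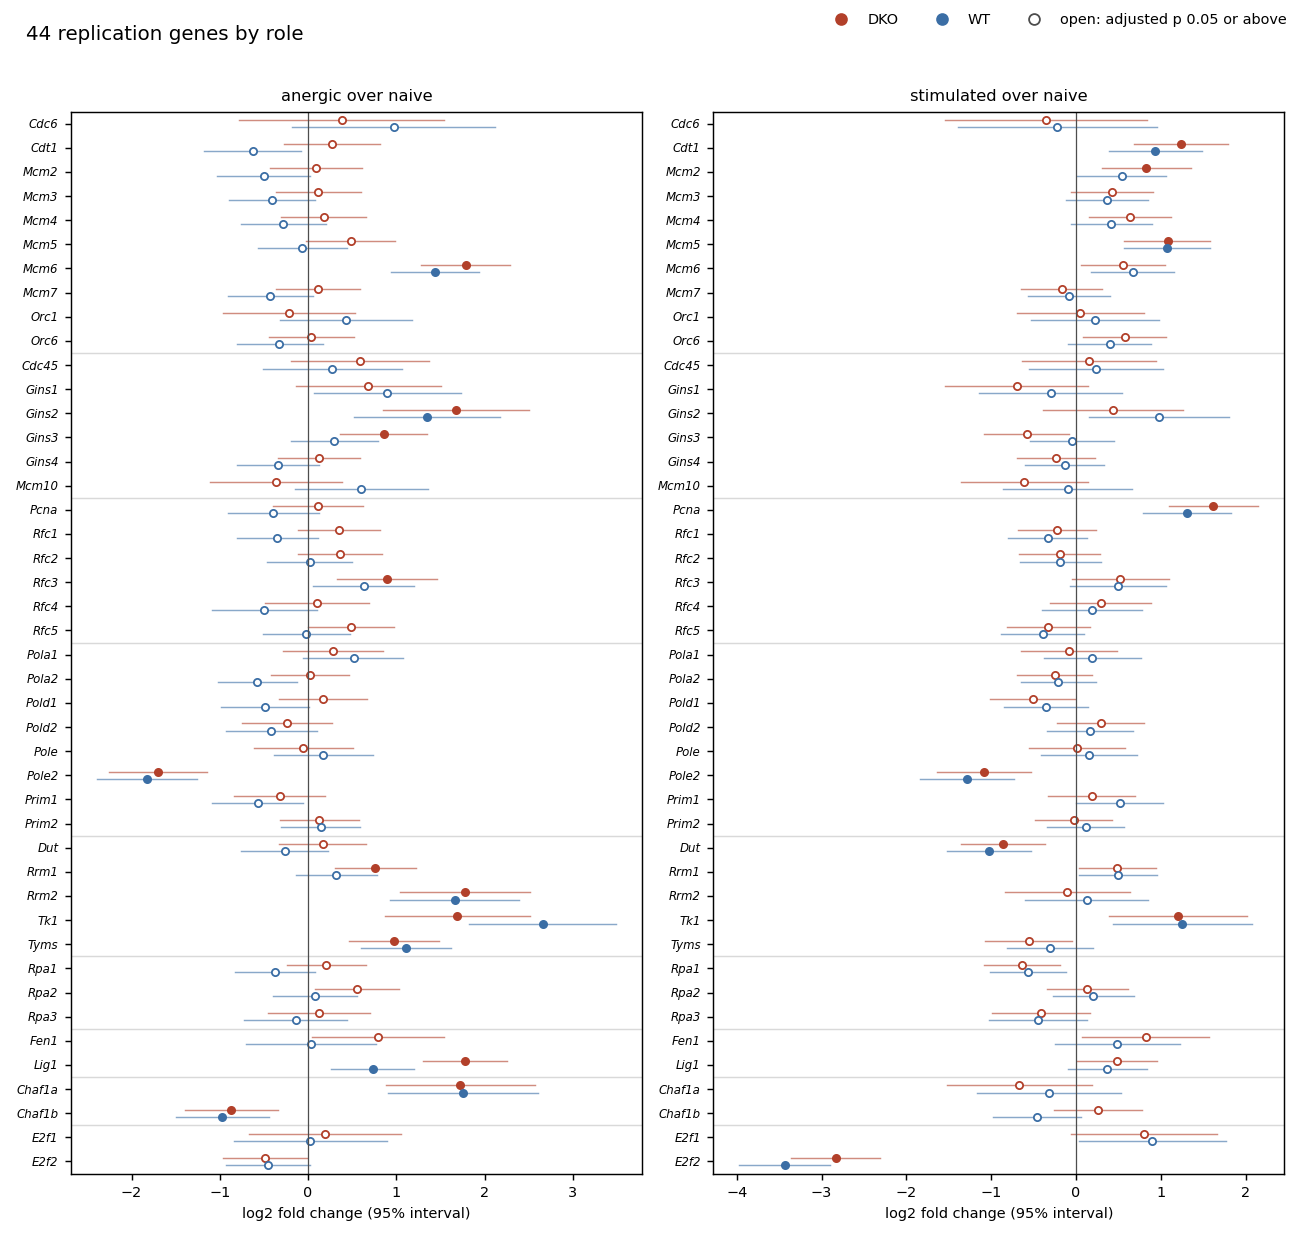
Log2 fold change of each of the 44 members, with 95% intervals, for anergic against naive and stimulated against naive cells in DKO and in WT, where filled points have an adjusted p under 0.05. In anergic cells Mcm6, Lig1, Rrm2 and Tk1 lie to the right in both genotypes and Pole2 to the left, and in stimulated cells Pcna lies to the right and E2f2 far to the left.

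The anergic counts depended on which chimera was used. Without chimera 10 the number of members called higher was 2 in DKO and 2 in WT cells, without chimera 11 it was 4 and 2, and without chimera 12 it was 15 and 8. The share of all genes tested called higher moved as well. It was 4.17% in DKO and 3.05% in WT cells without chimera 10, so the members' counts were near it. Without chimera 11 it was 3.45% and 3.21%, and without chimera 12 it was 12.4% and 7.33%. Without the naive WT and stimulated WT libraries of chimera 12 alone, 15 and 8 members were higher, with 2 lower in each genotype. There 11.7% and 6.25% of all genes were called higher. Mcm6 and Pole2 were called in both genotypes under all 12 settings, Lig1 in DKO cells and Tk1 in WT cells likewise.

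Markers of other cells also differed between anergic and naive libraries. All 8 markers of T follicular helper cells averaged above 1 TPM in the anergic groups, with sums of 4412 to 5441 TPM in anergic DKO and 2126 to 2813 TPM in anergic WT cells, against 71.8 to 85.5 TPM in naive DKO and 72.0 to 81.9 TPM in naive WT cells. The 8 Treg markers summed to 768 to 869 TPM in anergic DKO and 2271 to 2546 TPM in anergic WT cells, against 146.5 to 163 TPM in naive DKO and 166 to 182 TPM in naive WT cells. Foxp3, which defines Tregs, was at 17.9 to 20.9 TPM in anergic DKO cells and 447 to 533 TPM in anergic WT cells, so the CD25- gate of WT cells was not free of it. The 8 B cell markers summed to 84.4 to 97.1 TPM in anergic DKO and 69.1 to 91.5 TPM in anergic WT cells, against 34.3 to 36.6 TPM in naive DKO and 19.6 to 30.7 TPM in naive WT cells. The 10 markers of germinal center B and plasma cells, cells that divide fast or secrete antibody, summed to 300.8 to 367 TPM in anergic DKO and 376 to 518 TPM in anergic WT cells, against 148 to 166 TPM in naive DKO and 151 to 160.5 TPM in naive WT cells. Among them Mzb1 was at 0 in naive WT cells. The 10 myeloid markers summed to 118.5 to 139 TPM in anergic DKO and 101 to 158 TPM in anergic WT cells, against 50.9 to 56.4 TPM in naive DKO and 51.4 to 63.3 TPM in naive WT cells. The 8 CD8 and NK cell markers were lower, at 66.9 to 80.0 TPM in anergic DKO and 64.1 to 77.8 TPM in anergic WT cells, against 180.5 to 196 TPM in naive DKO and 210.0 to 226 TPM in naive WT cells, and the 8 dendritic cell markers were lower as well, at 112.5 to 138 TPM and 136 to 162 TPM, against 201 to 235 TPM and 193 to 239.5 TPM. Single genes made up much of several sums. In anergic DKO cells Cebpb averaged 87.4 TPM of the myeloid sum and Pdcd1 2764 TPM of the T follicular helper sum. Xbp1 averaged 192 TPM of their germinal center B and plasma cell sum. In naive DKO cells Bst2 averaged 206.7 TPM of the dendritic sum. A sum thus does not show by itself that such cells were present. The part of these cells, if any, in the anergic results was not tested.

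After 3 h of stimulation the clamp and some licensing factors were higher and E2f2, Dut and Pole2 lower, in both genotypes. In DKO cells 5 members were higher and 3 lower after stimulation, where 8.34% and 5.73% of all genes tested were called higher and lower. In WT cells 4 were higher and 3 lower, where 7.13% and 4.79% of all genes tested were called higher and lower. These counts of members were near the shares over all genes tested. Of 18672 genes in the members' range of mean log2 CPM, 2394 were called higher and 1716 lower in DKO cells. In WT cells 2044 and 1457 of them were, so the members were not called more often than genes of like level in either genotype. Cdt1, Mcm5, Pcna and Tk1 were higher in both, which is 80% of the DKO list and 100% of the WT list, and Dut, E2f2 and Pole2 were lower in both. Here too the overlap over all genes tested was not computed. The members' median log2 change was 0.03 in DKO cells against -0.36 over all genes, and 0.16 in WT cells against 0.03 over all genes. Over genes with a mean log2 CPM over 1 the median was -0.15 in DKO and 0.06 in WT cells. The members' medians depend on the setting, from -0.18 with limma to 0.37 without chimera 10 in DKO cells and from -0.10 with only the groups compared to 0.32 without chimera 10 in WT cells. The naive libraries in these comparisons were the same ones that served for the anergic cells.

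Pcna, the sliding clamp, had the largest rise in level. It had 207, 214 and 246 TPM in stimulated DKO cells against 81.5, 93.9 and 93.1 TPM in naive DKO cells, and 160.3, 199 and 206 TPM in stimulated WT cells against 88.7, 94.0 and 88.5 TPM in naive WT cells. All stimulated libraries exceeded all naive ones, with log2 fold changes of 1.62 ± 0.26 in DKO cells (adjusted p = 4.99e-05) and 1.31 ± 0.25 in WT cells (adjusted p = 0.000654), called under all 12 other settings. Pcna has pseudogenes with entries of their own in the table, among which shared reads may have been split. The 5 genes of its loader, Rfc1 to Rfc5, were not called in either genotype.

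Licensing factors made up most of the other rises, with 3 of 10 called in DKO cells (median log2 change 0.56) and 2 of 10 in WT cells (median 0.41). Cdt1, which brings the MCM ring to origins, had 86.8, 81.6 and 94.3 TPM in stimulated DKO cells against 48.9, 49.6 and 37.4 TPM in naive DKO cells, and 75.2, 84.0 and 95.1 TPM in stimulated WT cells against 52.5, 51.2 and 55.4 TPM in naive WT cells. The log2 fold change was 1.24 ± 0.27 in DKO cells (adjusted p = 0.00173) and 0.93 ± 0.27 in WT cells (adjusted p = 0.0192).

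Mcm5 had 94.9, 95.6 and 105 TPM in stimulated DKO cells against 60.8, 52.8 and 58.8 TPM in naive DKO cells, and 97.1, 93.5 and 113 TPM in stimulated WT cells against 56.3, 57.2 and 58.3 TPM in naive WT cells. No stimulated library of Cdt1 or Mcm5 fell into the naive range of its genotype. The log2 fold change of Mcm5 was 1.08 ± 0.25 in DKO cells (adjusted p = 0.00276) and 1.07 ± 0.25 in WT cells (adjusted p = 0.00359). Mcm2 was called in DKO cells alone, at 83.3, 95.9 and 94.5 TPM in stimulated DKO against 67.5, 60.9 and 61.8 TPM in naive DKO cells (0.83 ± 0.26, adjusted p = 0.0284), and at 0.54 ± 0.25 in WT cells (adjusted p = 0.233). The genotypes' changes in Mcm2 were not shown to differ (adjusted p = 1 for the interaction). The subunit that stood out in anergic cells, Mcm6, had log2 changes of 0.55 ± 0.24 in DKO (adjusted p = 0.15) and 0.67 ± 0.24 in WT cells (adjusted p = 0.0754) after stimulation.

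Tk1 had 3.21, 2.56 and 3.26 TPM in stimulated DKO cells and 3.21, 2.40 and 1.95 TPM in stimulated WT cells, against the naive levels given before. In DKO cells the lowest stimulated library lay within rounding of the highest naive one, and in WT cells the ranges overlapped. The fitted log2 fold changes were 1.20 ± 0.39 in DKO (adjusted p = 0.0408) and 1.25 ± 0.40 in WT cells (adjusted p = 0.0375), close to the threshold.

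E2f2, an E2F factor that in mice restrains T cell proliferation, had the largest fall. It had 1.95, 2.01 and 1.13 TPM in stimulated DKO cells against 16.4, 13.2 and 15.0 TPM in naive DKO cells, and 2.13, 1.59 and 0.99 TPM in stimulated WT cells against 18.3, 18.1 and 18.6 TPM in naive WT cells. The groups were far apart, with log2 fold changes of -2.83 ± 0.25 in DKO cells (adjusted p = 1.48e-08) and -3.43 ± 0.26 in WT cells (adjusted p = 9.95e-10), called under all 12 other settings. E2f1, the family member that drives S phase entry, was not called (0.80 ± 0.42 in DKO cells, adjusted p = 0.261, and 0.90 ± 0.42 in WT cells, adjusted p = 0.227).

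Dut, which breaks down dUTP to keep uracil out of DNA, and Pole2 fell as well. Dut had 16.9, 17.8 and 14.3 TPM in stimulated DKO cells against 34.7, 39.3 and 35.5 TPM in naive DKO cells, and 17.9, 13.7 and 15.2 TPM in stimulated WT cells against 38.3, 32.8 and 38.8 TPM in naive WT cells. Its log2 fold change was -0.86 ± 0.24 in DKO cells (adjusted p = 0.0144) and -1.02 ± 0.24 in WT cells (adjusted p = 0.00439). Pole2 had 6.54, 5.84 and 6.00 TPM in stimulated DKO cells and 7.51, 7.08 and 5.66 TPM in stimulated WT cells, all below the naive libraries given before, with log2 fold changes of -1.09 ± 0.27 (adjusted p = 0.00546) and -1.29 ± 0.27 (adjusted p = 0.00137). Pole2 was thus lower in both anergic and stimulated cells than in the same naive libraries.

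The stimulation counts varied with the libraries and the scale. Without the naive WT and stimulated WT libraries of chimera 12, 14 members were called higher and 4 lower in DKO cells, and 4 and 4 in WT cells. Without chimera 10 the counts were 4 higher and 1 lower in DKO cells and 3 and 1 in WT cells, without chimera 11 they were 3 and 1 in DKO and 2 and 1 in WT cells, and without chimera 12 they were 11 and 4 in DKO and 4 and 6 in WT cells. On log2(TPM + 1) with limma, 6 were higher and 15 lower in DKO cells and 5 higher and 13 lower in WT cells. The shares of all genes tested moved too. In DKO cells 14.1% were called higher without the 2 WT libraries of chimera 12, and 8.09%, 3.66% and 12.1% without chimeras 10, 11 and 12. In WT cells these shares were 6.47%, 6.78%, 3% and 8.11%. With limma 9.03% were higher and 12.7% lower in DKO cells, and 8.93% and 9.79% in WT cells. Markers of other cells differed here too: the germinal center B and plasma cell list summed to 245 to 251 TPM in stimulated DKO and 238 to 257 TPM in stimulated WT cells, with Xbp1 as its highest gene, and the Treg list to 410.1 to 546 TPM and 522 to 679 TPM, each above the naive sums given before. The T follicular helper list summed to 422.5 to 548 TPM in stimulated DKO and 286 to 380.4 TPM in stimulated WT cells and the myeloid list to 131 to 194 TPM and 112 to 153 TPM, also above the naive sums, while the CD8 and NK list (109.7 to 128 TPM and 117 to 130.1 TPM) and the dendritic list (73.1 to 77.9 TPM and 68.9 to 78.3 TPM) were below them. The B cell sums were lower, at 15.4 to 24.0 TPM in stimulated DKO cells, or overlapped, at 11.2 to 31.2 TPM in stimulated WT cells, and the part of these markers in the stimulation results was not tested. Single genes again made up much of some sums. In stimulated DKO cells Cebpb averaged 150 TPM of the myeloid sum and Pdcd1 332.4 TPM of the T follicular helper sum.

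Between genotypes, no replication gene was called in any population. In anergic DKO against anergic WT cells 0 members were called by edgeR in either direction, where 0.879% of all genes tested were higher and 0.459% lower, and 3 had an unadjusted p under 0.05, all higher. At that unadjusted cut 1666 of all 33795 genes tested were higher and 1134 lower. DESeq2 also called 0, and limma on log2(TPM + 1) called 1. The members' median log2 change was 0.24 against -0.03 over all genes and 0.16 over genes with a mean log2 CPM over 1, with 35 members positive and 9 negative. On log2(TPM + 1) with limma the members' median was 0.01 against -0.18 over all genes. With TMM factors from well expressed genes it was 0.13 against -0.15. The value of the members' median thus depends on the scale, while it lay above that of all genes in both settings.

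Lig1 came nearest to the threshold. Its anergic levels, 36.5 to 47.7 TPM in DKO cells and 26.4 to 32.4 TPM in WT cells, did not overlap, and the log2 fold change was 0.77 ± 0.23 (95% interval 0.31 to 1.24, adjusted p = 0.119), higher in 3 of 3 chimeras. On TPM 6 members lay fully above and 8 fully below WT in anergic cells, where 5.97% and 17.7% of all genes tested did. Lig1 was called in 7 of the 12 other settings, with adjusted p from 0.00321 to 0.969. In naive and stimulated cells Lig1 was on the other side, at -0.27 ± 0.23 and -0.16 ± 0.23.

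The next 4 members by unadjusted p were Cdt1, Gins3, E2f2 and Rfc1. Cdt1 had 55.0, 49.8 and 45.8 TPM in anergic DKO cells against 37.3, 43.7 and 39.3 TPM in anergic WT cells (0.57 ± 0.27, adjusted p = 0.576), and Gins3 had 27.3, 28.5 and 27.1 TPM against 25.9, 19.1 and 24.8 TPM in anergic WT cells (0.50 ± 0.24, adjusted p = 0.597). Both were higher in all 3 chimeras, as were Mcm2, Mcm5 and Pcna, while Tk1 and Orc1 were lower in all 3. Without chimera 12 Cdt1 joined Lig1 among the calls. E2f2 had 10.8, 8.45 and 9.84 TPM in anergic DKO cells against 19.0, 13.1 and 15.7 TPM in anergic WT cells (-0.47 ± 0.23, adjusted p = 0.62), lower in all 3 chimeras. Rfc1, the large clamp loader subunit, had 56.0, 50.8 and 43.3 TPM in anergic DKO cells against 46.4, 48.2 and 38.5 TPM in anergic WT cells, which overlapped (0.41 ± 0.23, adjusted p = 0.692). The Treg and T follicular helper marker sums given before differed between these same libraries, and their part in these values was not tested.

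In stimulated DKO against stimulated WT cells 0 members were called by edgeR, where 0.0473% of all genes tested were higher and 0.169% lower, and 2 had an unadjusted p under 0.05, both lower. At that unadjusted cut 289 of all 33795 genes tested were higher and 684 lower. DESeq2 called 0 and limma called 1. The members' median was -0.05 against -0.02 over all genes, and 0.23 without the naive WT and stimulated WT libraries of chimera 12, where 0 members were called.

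Pold1, the catalytic subunit of polymerase delta, differed most. It had 29.8, 31.01 and 24.5 TPM in stimulated DKO cells against 52.9, 46.6 and 51.1 TPM in stimulated WT cells, ranges that did not overlap, with a log2 fold change of -0.88 ± 0.24 (95% interval -1.38 to -0.37, adjusted p = 0.288), and it was called in 4 of the 12 other settings (adjusted p 0.00264 to 1). In naive cells Pold1 was again lower in DKO, at 56.8, 43.8 and 49.4 TPM against 78.4, 65.4 and 82.5 TPM in naive WT cells (-0.72 ± 0.24, adjusted p = 0.767). In anergic cells it had 57.4, 48.6 and 47.6 TPM in DKO against 59.0, 67.1 and 63.5 TPM in WT cells, but the fitted log2 change was -0.07 ± 0.24. TPM are shares of each library, while the fit also applies the TMM factors, and the 2 scales part here.

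The other members nearest the threshold in stimulated cells were Gins3, Mcm7, Gins4 and Rrm2. Gins3 had 12.3, 8.13 and 7.21 TPM in stimulated DKO cells against 15.2, 15.0 and 10.6 TPM in stimulated WT cells (-0.59 ± 0.24), and Mcm7 had 54.8, 46.2 and 50.5 TPM against 68.1, 55.3 and 65.9 TPM in stimulated WT cells (-0.37 ± 0.23). Gins4 had 75.9, 62.7 and 63.1 TPM in stimulated DKO cells against 86.2, 75.7 and 82.6 TPM in stimulated WT cells (-0.33 ± 0.23), and Rrm2 had 2.48, 2.73 and 3.61 TPM against 4.66, 3.26 and 4.06 TPM in stimulated WT cells (-0.47 ± 0.35). All 4 were lower in DKO cells of all 3 chimeras, and all 4 had an adjusted p of 1. They were picked by unadjusted p. Mcm6, Pola2 and Rpa1 were also lower in all 3 chimeras, while Pcna and Mcm2 were higher in all 3.

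In naive DKO against naive WT cells 0 members were called by edgeR, where 0.0385% of all genes tested were higher and 0.0562% lower, and 1, Pold1, had an unadjusted p under 0.05. At that unadjusted cut 1480 of all 33795 genes tested were higher and 302 lower. DESeq2 and limma each called 0. The members' median was -0.15 against 0.25 over all genes and -0.08 over genes with a mean log2 CPM over 1. Without the naive WT and stimulated WT libraries of chimera 12 the members' median was -0.07 and that of all genes 0.02, with 0 members called.

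After Pold1 the smallest unadjusted p in naive cells belonged to Mcm10, a helicase activator, at 2.16, 2.47 and 2.03 TPM in DKO against 1.31, 2.16 and 0.59 TPM in WT cells (0.72 ± 0.37). E2f2 followed (-0.44 ± 0.23), with each naive DKO library below each naive WT one. Chaf1b had -0.42 ± 0.25, and Pole had 6.89, 4.77 and 5.80 TPM in naive DKO cells against 4.80, 5.29 and 2.64 TPM in naive WT cells, which overlapped (0.37 ± 0.27). All 4 had an adjusted p of 0.767.

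**Figure D4:**
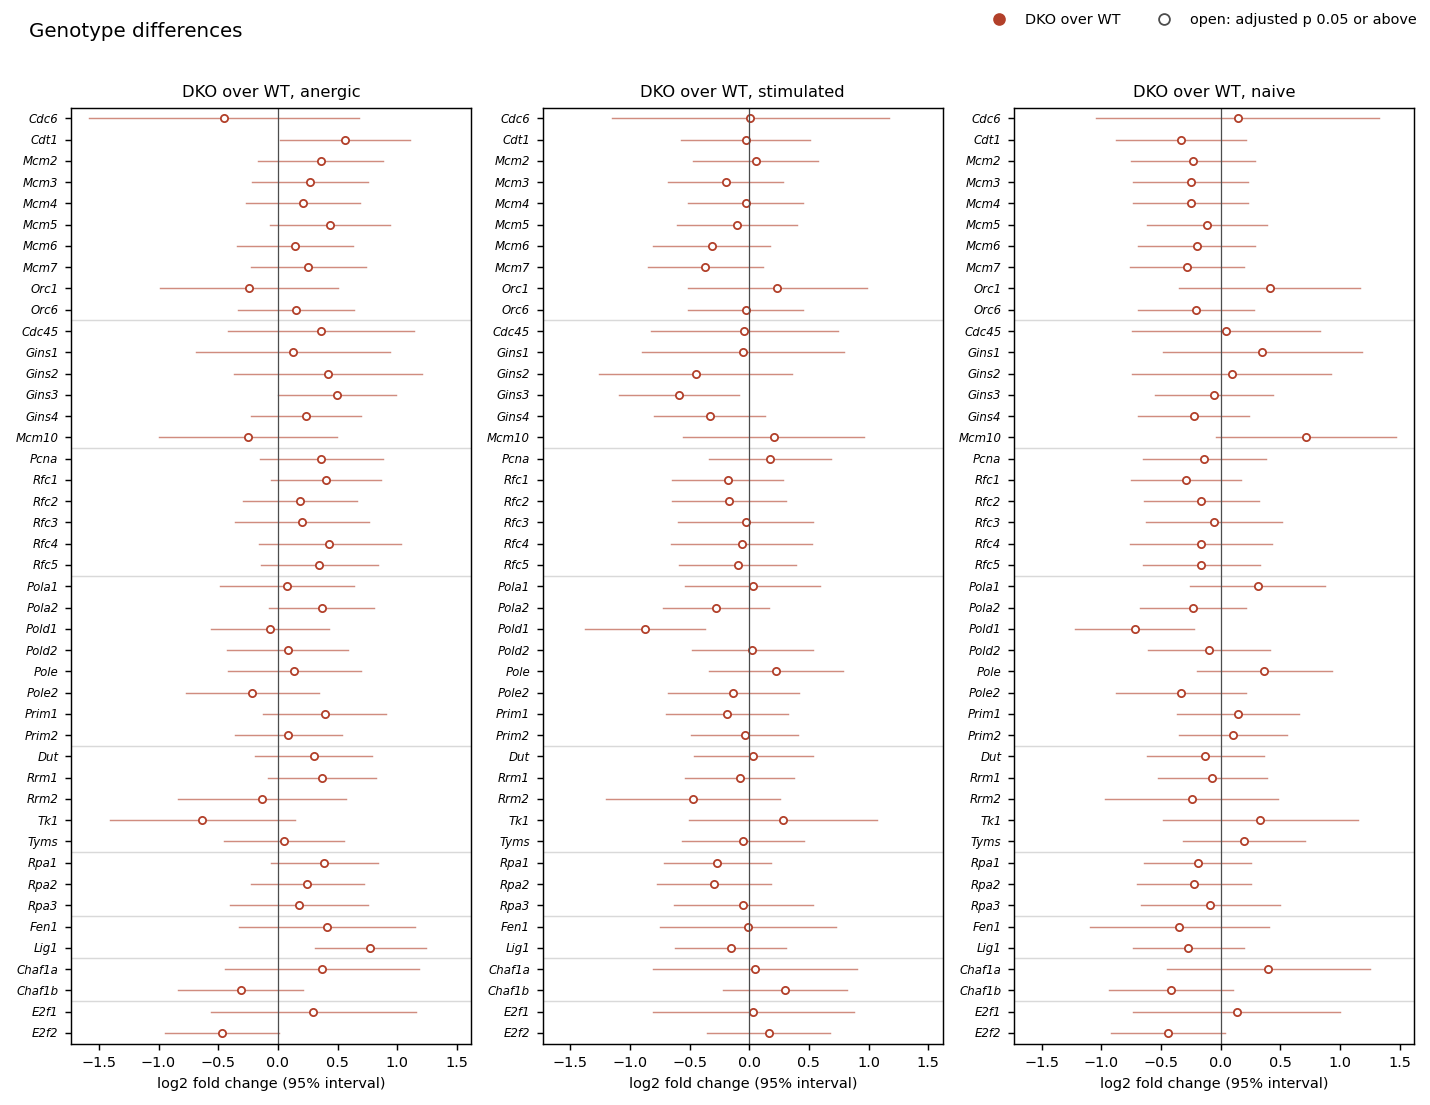
Log2 fold change of each of the 44 members in DKO against WT cells, with 95% intervals, in anergic, stimulated and naive cells. All points are open, since none had an adjusted p under 0.05, with Lig1 farthest to the right in anergic cells (0.77) and Pold1 farthest to the left in stimulated cells (-0.88).

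Whether the change from naive cells differed between genotypes was tested as an interaction. For anergy 0 members were called by edgeR, where 0.228% of all genes tested were higher and 0.157% lower, and 3 had an unadjusted p under 0.05, while DESeq2 and limma called 0. At that unadjusted cut 1327 of all 33795 genes tested were higher and 2260 lower. Lig1 had an interaction of 1.04 ± 0.32 (95% interval 0.38 to 1.70, adjusted p = 0.272), Cdt1 of 0.90 ± 0.38 (adjusted p = 0.451) and Rfc1 of 0.70 ± 0.32 (adjusted p = 0.466), where the change from naive cells was 1.77 in DKO and 0.73 in WT cells for Lig1, 0.27 and -0.63 for Cdt1, and 0.35 and -0.35 for Rfc1. Of these 6 changes only those of Lig1 were called. Rfc1 had 50.4, 38.4 and 40.7 TPM in naive DKO and 52.8, 49.1 and 43.6 TPM in naive WT cells. Pola2, the second subunit of polymerase alpha, and Pold1 followed at 0.60 ± 0.30 and 0.66 ± 0.34. Pola2 had 28.9, 25.7 and 27.9 TPM in anergic DKO against 31.2, 26.7 and 31.2 TPM in naive DKO cells, and 26.5, 23.2 and 25.97 TPM in anergic WT against 30.2, 30.8 and 35.2 TPM in naive WT cells. Lig1 was called in 3 of the 12 other settings.

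For stimulation 0 members were called, by edgeR, DESeq2 or limma, where 0% of all genes tested were higher and 0.00296% lower, and 0 had an unadjusted p under 0.05. The smallest unadjusted p belonged to Chaf1b, at 13.03, 15.8 and 19.7 TPM in stimulated DKO cells and 10.8, 13.7 and 13.5 TPM in stimulated WT cells (interaction 0.72 ± 0.36, 95% interval -0.02 to 1.45), and to E2f2 (0.60 ± 0.34, 95% interval -0.10 to 1.30). Gins3 had -0.53 ± 0.34, Mcm10 -0.51 ± 0.52 and Gins2 -0.54 ± 0.56, each with an adjusted p of 1. Mcm10 had 1.32, 1.31 and 0.93 TPM in stimulated DKO and 1.64, 1.21 and 0.51 TPM in stimulated WT cells, and Gins2 had 1.27, 1.15 and 1.12 TPM in stimulated DKO against 2.05, 1.58 and 1.26 TPM in stimulated WT cells. These intervals are wide, so the data do not show that the genotypes respond alike.

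The members' companion genes are read against the shares over all genes tested given before for each comparison. Of 30 mitosis genes, which act after replication, 6 were higher and 1 lower in anergic DKO than naive DKO cells (median log2 change 0.59), and 13 were higher and 0 lower in anergic WT than naive WT cells (median 0.98). Mki67, the antigen Ki-67 found in cycling cells, had log2 fold changes of 1.19 ± 0.33 in DKO (adjusted p = 0.0194) and 1.98 ± 0.34 in WT cells (adjusted p = 0.000163). Top2a, the topoisomerase that untangles chromosomes, had 1.39 ± 0.30 (adjusted p = 0.00198) and 1.96 ± 0.30 (adjusted p = 4.5e-05). None of the 30 was called for the difference between genotypes in this change, for example Mki67 at -0.79 ± 0.47 (adjusted p = 0.485). Kif23, a motor of cell division, was the gene that fell in DKO cells (-1.42 ± 0.31). After stimulation 0 of the 30 were higher and 1 lower in each genotype, Cdca3 in both (-1.29 ± 0.36 in DKO and -1.69 ± 0.37 in WT cells). Leaving out a chimera changed the DKO count of 6 higher genes to 1 (without 10), 0 (without 11) or 9 (without 12), and the WT count of 13 to 2, 5 or 17. Without the naive WT and stimulated WT libraries of chimera 12 alone these counts were 12 and 15.

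Of 48 other replication genes, 3 were higher and 1 lower in anergic DKO cells and 2 higher and 5 lower in anergic WT cells than in naive cells of the same genotype, and apart from the 5 lower in WT cells these are shares near those over all genes tested. Timeless, of the fork protection complex, fell in both (-1.09 ± 0.25 in DKO and -1.41 ± 0.25 in WT cells). After stimulation 11 rose and 5 fell in DKO cells and 10 rose and 0 fell in WT cells, among them Cdca7, a MYC and E2F target (2.33 ± 0.27 and 2.04 ± 0.27), and the histone chaperone gene Nasp (1.34 ± 0.24 and 1.19 ± 0.24). The counts that fell depend on the scaling: with TMM factors from well expressed genes 16 rose and 9 fell in DKO and 14 rose and 9 fell in WT cells, with RLE size factors 11 and 1 in DKO and 5 and 0 in WT cells, and without the naive WT and stimulated WT libraries of chimera 12, 17 and 10 in DKO and 8 and 6 in WT cells. Of 18 fork protection genes, 1 rose and 1 fell in anergic cells of each genotype, with Wee1, a kinase that holds back CDK1, higher (1.43 ± 0.34 in DKO and 2.09 ± 0.35 in WT cells) and Fanci, of the Fanconi anemia pathway, lower (-0.83 ± 0.24 and -1.50 ± 0.25). These fork counts are also near the shares over all genes, and without the 2 WT libraries of chimera 12 they were 6 higher and 2 lower in DKO and 3 higher and 1 lower in WT cells.

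Of 25 genes of the E2F, RB and cyclin circuit, 6 rose and 1 fell in anergic DKO cells and 5 rose and 4 fell in anergic WT cells, or 10 and 1 in DKO and 6 and 4 in WT cells without the 2 WT libraries of chimera 12. Cdkn2c, the CDK4 and CDK6 inhibitor p18, rose in both (4.37 ± 0.46 in DKO and 3.36 ± 0.44 in WT cells), and Myc fell in both (-2.02 ± 0.30 and -2.35 ± 0.31). After stimulation 7 rose and 6 fell in DKO cells and 6 rose and 5 fell in WT cells, with Cdkn1a, the CDK inhibitor p21 (5.98 ± 0.45 and 5.07 ± 0.44), and Myc (2.71 ± 0.31 and 2.54 ± 0.31) higher and Ccne1, cyclin E1 (-2.41 ± 0.33 and -2.46 ± 0.33), lower.

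In this circuit 2 genes were called between genotypes. In anergic DKO cells Ccne1 was at 16.0, 12.2 and 16.6 TPM against 5.67, 6.40 and 7.85 TPM in anergic WT cells (1.40 ± 0.32, adjusted p = 0.019), and Ccnd2, cyclin D2, was also higher (1.18 ± 0.28, adjusted p = 0.0298). In stimulated DKO cells Fanci was at 4.27, 3.96 and 3.18 TPM against 15.0, 9.53 and 10.2 TPM in stimulated WT cells (-1.61 ± 0.25, adjusted p = 0.00114), the 1 called gene of the fork list.

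As a summary per library, the mean of log2(TPM + 1) over the 44 members was 4.45 ± 0.081 in anergic DKO and 4.50 ± 0.021 in anergic WT cells (SD, n = 3 each, here and for the other groups). It was 4.03 ± 0.052 in stimulated DKO against 4.10 ± 0.097 in stimulated WT cells and 4.25 ± 0.035 in naive DKO against 4.23 ± 0.063 in naive WT cells. On this scale the order was anergic above naive above stimulated in both genotypes, and DKO and WT means differed by less than the larger SD of each pair. Summed TPM did not show the step from naive to stimulated cells. Its means were 1556 in naive and 1583.9 in stimulated DKO cells, and 1649.3 in naive and 1648.5 in stimulated WT cells. The fitted median log2 change after stimulation was 0.03 in DKO and 0.16 in WT cells, and varied with the setting. The mean of log2(TPM + 1) over the mitosis genes was 2.50 ± 0.129 in anergic DKO and 2.78 ± 0.062 in anergic WT cells, 1.74 ± 0.135 in stimulated DKO and 1.73 ± 0.373 in stimulated WT cells, and 2.19 ± 0.139 in naive DKO and 1.87 ± 0.312 in naive WT cells. The wide WT spreads come with the chimera 12 libraries, at 1.53 in naive WT and 1.33 in stimulated WT cells.

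**Figure D5:**
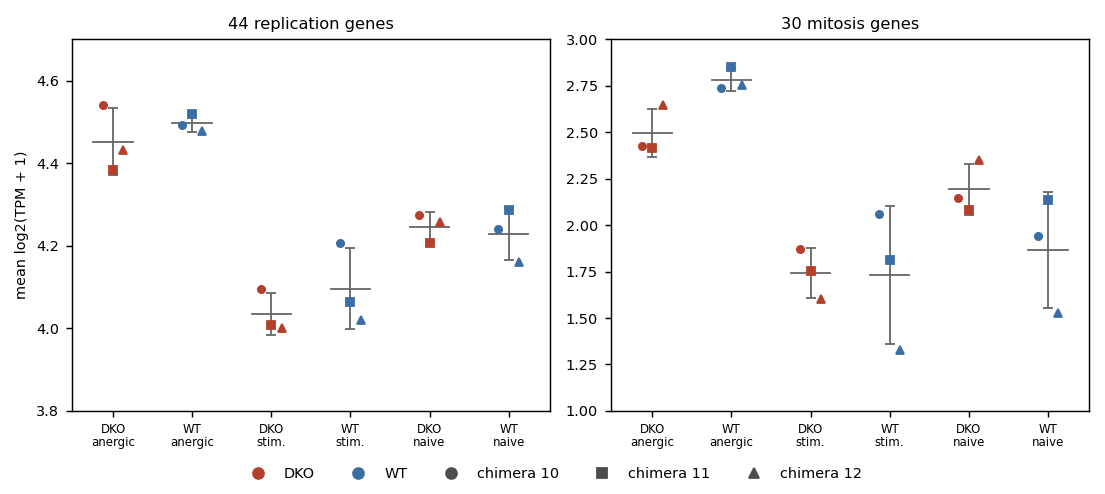
Mean of log2(TPM + 1) per library over the 44 replication genes and over the 30 mitosis genes, with bars at the group mean ± SD of 3 chimeras and 1 marker for each chimera. On this scale the replication mean is highest in anergic cells (4.45 in DKO, 4.50 in WT) and lowest in stimulated cells (4.03 in DKO, 4.10 in WT). Summed TPM of the members overlapped between naive and stimulated cells in both genotypes. The axes do not start at 0.

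Over the 18 libraries the replication mean and the mitosis mean had Pearson r = 0.371 and Spearman rho = 0.311, and -0.289 and -0.304 with group means removed, as a description of libraries that share chimeras and depth. The correlation of a member's log2 CPM with the mean of the others over the same libraries ran from 0.899 for Rpa2, a subunit of RPA, down to -0.448 for Pole2, the member that was lower in both anergic and stimulated cells. With group means removed it ran from 0.946 for Mcm5 to -0.613 for Cdc6, and was 0.311 for Pole2.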

How the data were processed

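RNA of 2000 cell equivalents per library was amplified with SMART-seq v4, and 200 pg of cDNA was tagmented with Nextera XT, which keeps no strand. Reads were trimmed (fastp), aligned to mm10 (STAR) and assigned to genes (featureCounts) by the authors, who deposited the raw counts. The authors also deposited TPM per gene, made from these reads. For tool versions, the annotation and the lengths behind the TPM, nothing was given in the sources used here. The 8 deposited tables with the fold changes and p-values of the authors' own comparisons were not used.

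Counts were tested in R 4.3.3 with edgeR 4.0.16 (filterByExpr, TMM, quasi-likelihood F-test) in 1 fit of 18 libraries over 6 groups, blocked on chimera, for 33795 genes, with Benjamini-Hochberg adjustment and a threshold of 0.05. Each SE was derived from the fold change and its F statistic. The 117 entries with a blank name held 0.0654 to 0.136% of counts and were left out. DKO and WT cells with the same chimera number came from the same animal, so the number pairs them. Within a population their deviations from the group means correlated at -0.211 to 0.509 over 9 pairs (median 0.184). Over all 45 pairs of libraries of the same chimera the range was -0.503 to 0.854 (median -0.0366). Over 90 pairs of different chimera and group it was -0.826 to 0.791 (median 0.0174). Libraries of the same chimera were thus not more alike over all pairs. Alternatives used limma 3.58.1 on log2(TPM + 1), DESeq2 1.42.0, other scalings and filters, only the groups compared, and libraries left out. Replicate libraries differed by more than counting noise, and the depth of 16133212 to 39783046 counts gave Cdc6, the lowest member, few reads. Gene positions came from GENCODE vM21 (GRCm38) and promoters from RefSeq. Scripts were tested on simulated data.

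Per-library levels are given for the called members with the smallest adjusted p (up to 8 a comparison), the 5 smallest unadjusted p where none was called, and the highest and lowest member. Companion genes are up to 4 a list with the smallest adjusted p, and those that met this in 1 genotype are given for both. The members and lists were chosen with earlier results of these data known.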

Additional observations from a re-analysis of the deposited data

How the results depend on the processing

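The 12 alternatives changed how many members were called: of the values of single genes under them, 4510 kept their side of the threshold, 168 crossed it to be called, 65 lost it and 0 called values changed sign. The 4510 include values that changed sign without being called in either fit, so this tally does not measure direction. Between genotypes, 1 member (Lig1) was higher in anergic DKO than WT cells with TMM factors from well expressed genes, no low-count filter, only genes with a mean log2 CPM over 1, limma on log2(TPM + 1), only the groups compared or without the naive WT and stimulated WT libraries of chimera 12, and 0 to 2 when a chimera was left out. In stimulated DKO cells 1 member (Pold1) was lower with TMM from well expressed genes, only well expressed genes, limma or only the groups compared. The anergy interaction had 1 call (Lig1) with no low-count filter and with only well expressed genes, and 0 to 1 without a chimera. In anergic DKO against naive DKO cells 17 were higher with only the groups compared and 2 to 15 when a chimera was left out, and 1 was lower with no low-count filter, RLE size factors or DESeq2 and 1 to 2 without a chimera. In anergic WT against naive WT cells 11 were higher with limma and 2 to 8 without a chimera, and 4 were lower with no low-count filter, only well expressed genes or limma and 1 to 2 without a chimera. In stimulated DKO against naive DKO cells 11 were higher with TMM from well expressed genes, 12 with only well expressed genes, 15 with only the groups compared, 14 without the 2 WT libraries of chimera 12 and 3 to 11 without a chimera; 1 was lower with RLE size factors, 6 with TMM from well expressed genes, 9 with only well expressed genes, 15 with limma and 1 to 4 without a chimera. In stimulated WT against naive WT cells 7 were higher with TMM from well expressed genes, 2 with no low-count filter, 10 with only well expressed genes and 2 to 4 without a chimera, and 6, 8, 13 and 8 were lower with TMM from well expressed genes, only well expressed genes, limma and only the groups compared, and 1 to 6 without a chimera. Without the replicate block, 10 were higher and 1 lower in anergic DKO cells, and it moved no other count by over 1.5 times. Cdc6 has no value where only well expressed genes were kept. The share of all genes called moved with these settings too. In anergic DKO against naive DKO cells 6.65% were higher in the main fit and 16.8% with only the groups compared. In stimulated DKO against naive DKO cells these shares were 8.34% and 17.5%. The causes of these moves were not tested.

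The scaling shifted the median over all genes, by over 0.1 on the log2 scale in some comparisons: the median over all genes in anergic WT against naive WT cells was 0.26, 0.37 with TMM from well expressed genes and 0.10 with RLE size factors, and in anergic DKO against naive DKO cells -0.21, -0.29 and -0.07. Depth limits Cdc6 most, with 3 to 68 counts per library, then Mcm10 (35 to 137) and E2f1 (45 to 143).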
